A study of Mus musculus with 16 samples.

Results

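The comparison asked for which genes the effect of a mouse genotype differed, in size or direction, between bone and fat. It contrasted the genotype effect in femur (AEA001 minus wild type) with the genotype effect in white adipose tissue, and it used all 16 arrays of the series, 8 of each tissue. The animals were 8 male mice of the C3HeB/FeJ strain at 17 weeks of age, 4 wild type and 4 of line AEA001, which was derived with the mutagen ENU, is titled a model for osteoporosis and is labelled an Ednra mutant. Each animal gave 1 femur and 1 white adipose array, so each combination of tissue and genotype holds 4 arrays. No Cre, transgene or drug is named in the labels, and the femur was profiled as an organ, so bone, marrow and any attached tissue were measured together. Values of Ednra itself were not analysed here. Among 25697 probes, 12882 had a signal above 16 intensity units on at least 4 of the 8 arrays of each tissue, and they stand for 8970 named genes, each read from its brightest probe.

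Ednra encodes the type A receptor for endothelin, a peptide that constricts vessels and also acts on bone-forming cells. Femur combines bone-forming and bone-resorbing cells with blood-forming marrow, while white adipose tissue combines lipid-storing adipocytes with vessels, fibroblasts and resident macrophages. Macrophages take up debris, present antigen on MHC class II proteins and are found in both tissues, where their number and state change with the load of the tissue.

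The 2 tissues carried the markers of their labels. Bglap, the bone-forming cell hormone osteocalcin, had a mean of 13302 intensity units in wild type femur, and Adipoq, the adipocyte hormone adiponectin, had a mean of 17156 in wild type white adipose tissue. Femur also carried skeletal muscle transcripts, with Acta1, the muscle actin, at 25094 to 26900 units in wild type. The epididymal markers Adam7 and Lcn5 were at or near 0 in white adipose tissue, with no array above 23 units. The mesothelial marker Upk3b was at 2484 to 4917 units there. The white adipose array of AEA001 replicate 2 stood apart from the other 7 of its tissue. It carried femur-type transcripts, with Bglap at 242 units against -12.2 to -2.03 on the other 7 arrays, the neutrophil gene S100a9 at 3414 against -0.99 to 114, and the fast muscle gene Mylpf at 710 against 2.80 to 51.7. Values without that array are given beside several of the groups below. Only 7 identifiers appear in the labels of these 8 mice, with 1 shared by wild type replicate 3 and AEA001 replicate 4.

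Across all genes the direction of the genotype effect was opposite in the 2 tissues for 5325 of 8970 (59.4%). The effects were small, with a median size of 0.134 in femur and 0.188 in white adipose tissue, on a log2 scale on which 1 unit is a 2-fold change. Across genes the femur and white adipose effects had a Pearson correlation of -0.22 and a Spearman correlation of -0.23. The genes are not independent replicates, and the 2 effects come from the same 8 animals. After limma with the animal as a random block and Benjamini-Hochberg adjustment over all probes, the difference between the tissues passed an adjusted p of 0.05 for 586 genes, or 6.53% of those tested. The femur effect was above the white adipose effect for 292 of them (3.26% of genes tested), written below as a positive difference, and below it for 294 (3.28%), written as a negative difference. In 575 of the 586 genes (6.41% of genes tested) the 2 tissues had opposite signs, and in 305 (3.40%) both effects also had an unadjusted p under 0.05. The size of the difference among the 586 genes ran from 0.33 to 2.91 with a median of 0.79, against a median of 0.27 over all genes and a median standard error of 0.19. Within each tissue the same fit called 26 genes in femur (0.290%) and 714 in white adipose tissue (7.96%). With each tissue fitted on its own, 0 probes passed in femur and 2 in white adipose tissue, so the single-tissue adjusted p below hold for the joint fit of all 16 arrays. Counted over all 12882 probes, those without a gene name included, the difference passed for 929 (7.21%), of which 916 (7.11%) had opposite signs, the femur effect for 38 (0.295%) and the white adipose effect for 983 (7.63%).

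**Figure D1:**
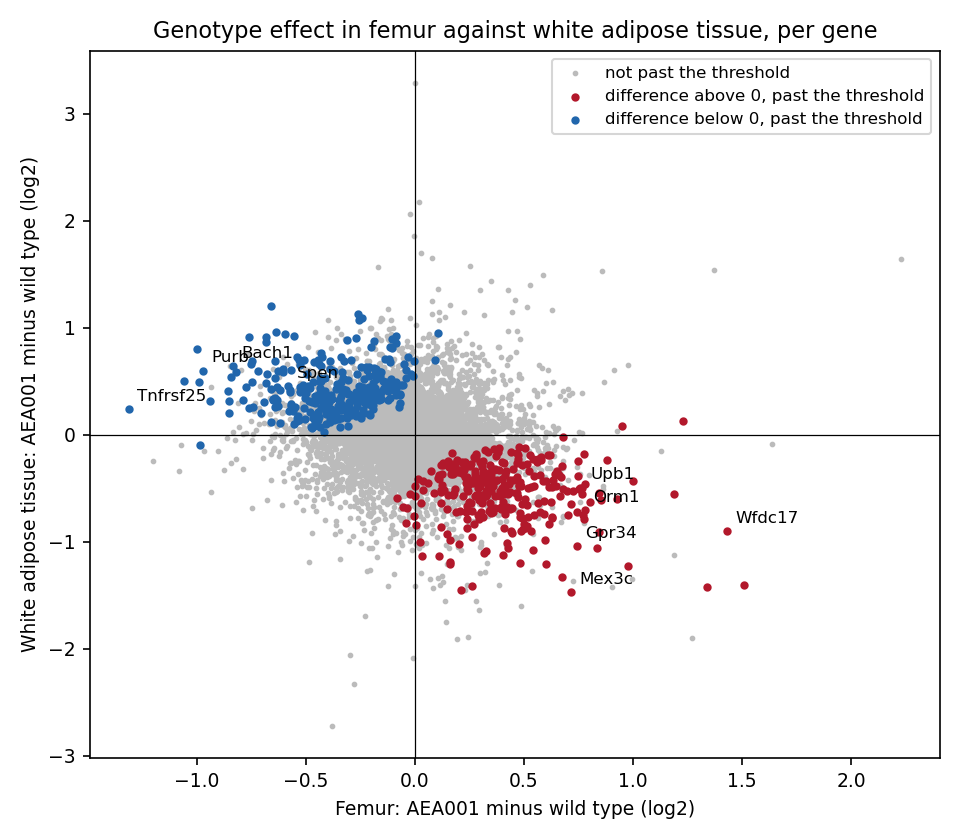
Each point is 1 of the 8970 genes tested, with the genotype effect in femur (x axis, log2) against that in white adipose tissue (y axis, log2). The 292 genes with a positive difference past the threshold lie mostly at lower right, the 294 with a negative difference mostly at upper left, and 575 of these 586 have opposite signs in the tissues.

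Leaving out single animals changed the number of genes past the threshold. Without wild type replicate 3 it was 1715, and without wild type replicate 4 it was 466. Without wild type replicate 1, wild type replicate 2, AEA001 replicate 2 or AEA001 replicate 3 it was 0, without AEA001 replicate 1 it was 1 and without AEA001 replicate 4 it was 4. At an unadjusted p under 0.05, limma counted 2488 genes (27.7%) with all arrays and 1632 to 3131 with 1 animal left out. All 586 genes kept an unadjusted p under 0.05 with each animal left out in turn. They were chosen by a stricter threshold on mostly the same arrays, so this is no separate test of them. The smallest adjusted p of the difference was 0.0225, and in 6 of the 8 fits with 1 animal fewer at most 4 genes passed. Without the white adipose array of AEA001 replicate 2 the count was 181 genes, of which 175 were among the 586. With the animal as a fixed term in the model no probe passed, and 3413 had an unadjusted p under 0.05.

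**Figure D2:**
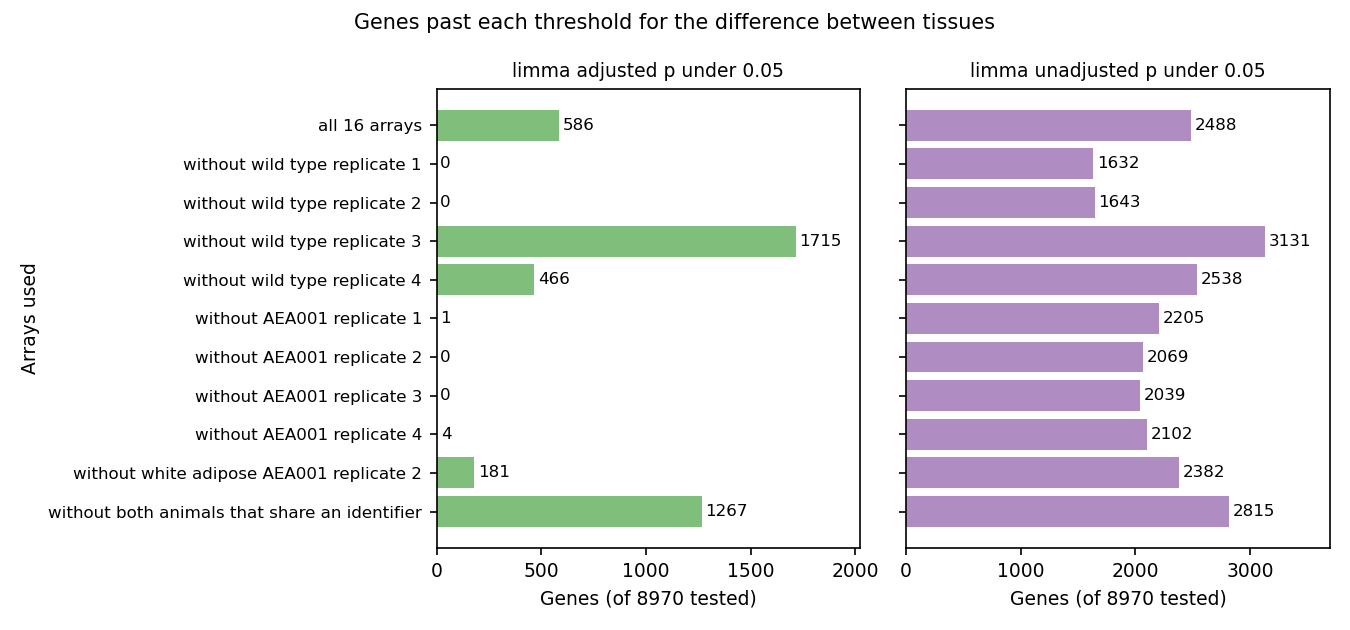
Bars give the number of genes whose difference between tissues had an adjusted p under 0.05 (left) or an unadjusted p under 0.05 (right), with the arrays named on the y axis left out. The left count runs from 0 to 1715 and the right count from 1632 to 3131.

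The wild type animals were not alike. Averaged over the 292 genes with a positive difference, the log2 signal in white adipose tissue was 9.20, 9.03, 8.69 and 8.78 for wild type replicates 1 to 4, and 8.49, 8.41, 8.38 and 8.24 for AEA001. In femur it was 8.20, 8.13, 8.55 and 8.31 for wild type and 8.68, 8.70, 8.71 and 8.70 for AEA001. Wild type replicate 3 lay nearest to the mutants in both tissues. These means describe genes chosen by the same contrast and are no test of it. For each animal the white adipose signal was subtracted from the femur signal. An exact two-sided permutation test of these values gave its smallest possible p, 0.0286 over 70 relabelings, for 468 of the 586 genes (79.9%). It did so for 1306 of all 8970 genes (14.6%). In each of these genes the 4 wild type and the 4 AEA001 animals did not overlap. The 586 genes were chosen by the same contrast in the same animals, so their share is no separate test of it.

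The 12 genes with a positive difference and the smallest p are described first. Upb1, which catalyses the last step of pyrimidine breakdown, had a log2 signal of 6.26, 5.74, 5.90 and 6.02 on the wild type femur arrays and 6.62, 6.99, 6.56 and 6.82 on the AEA001 femur arrays. White adipose values were 6.24, 6.43, 6.11 and 6.08 in wild type and 5.70, 5.94, 5.63 and 5.62 in AEA001. The genotypes did not overlap in either tissue, and they were ordered the opposite way. The femur effect was 0.77 and the white adipose effect -0.49, each past the threshold (adjusted p = 0.0425 and 0.0391 by limma), and their difference was 1.26 ± 0.19 (SE from 4 arrays per group, adjusted p = 0.0225). Of its other 2 probes, 1 had the same difference and 1 had 0.18 (adjusted p = 0.60).

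Wfdc17, a small secreted protein of activated macrophages, had the widest difference of these 12 genes, at 2.33 ± 0.43 (adjusted p = 0.0245). Its log2 signal in femur was 6.24, 6.06, 7.69 and 6.50 in wild type and 8.10, 8.15, 7.82 and 8.13 in AEA001. The white adipose arrays read 9.70, 9.26, 8.79 and 9.16 in wild type and 8.73, 8.49, 8.28 and 7.81 in AEA001. All AEA001 femurs lay above all wild type femurs, with wild type replicate 3 closest to them. Mex3c, an RNA-binding ubiquitin ligase, differed by 2.19 ± 0.36 (adjusted p = 0.0243), with a white adipose effect of -1.47 that passed the threshold alone (adjusted p = 0.0181) and a femur effect of 0.72 that did not (adjusted p = 0.14). Gpr34, a macrophage receptor for lysophosphatidylserine, differed by 1.79 ± 0.32. Its femur signal was 4.94 to 5.33 in wild type and 5.43 to 6.07 in AEA001, and its white adipose signal was 6.20 to 7.18 against 5.50 to 6.21, so the genotypes overlapped only in white adipose tissue.

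Orm1, the acute phase plasma protein orosomucoid, had a log2 signal of 8.30 to 9.11 in wild type femur and 9.29 to 9.86 in AEA001 femur, an effect of 0.78 that did not pass alone (adjusted p = 0.0639). In white adipose tissue its range was 13.4 to 13.9 in wild type and 12.8 to 13.2 in AEA001, with an effect of -0.71 (adjusted p = 0.0399). The difference was 1.49 ± 0.28 (adjusted p = 0.0245). Tapbp, or tapasin, which loads peptides on MHC class I, differed by 1.25 ± 0.23. Usp8, a deubiquitinase of endosomes, differed by 1.29 ± 0.23. Aldh1l1, a folate enzyme, differed by 0.97 ± 0.18 and was 1 of the genes with a femur effect past the threshold (0.68, adjusted p = 0.0463). Its femur signal was 4.39 to 4.81 in wild type and 5.04 to 5.49 in AEA001, close to the floor of 4. The other 2 Aldh1l1 probes had differences of 0.27 and 0.16 that did not pass. Map2k6, the kinase that activates p38, differed by 1.07 ± 0.18, with effects of -0.93 in white adipose tissue (adjusted p = 0.0179) and 0.15 in femur. The endoplasmic reticulum cation channel gene Tmem38b, the secreted angiopoietin-like gene Angptl1 and the Rac activator gene Tiam1 differed by 0.96, 0.95 and 0.74.

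The 12 genes with a negative difference and the smallest p come next. Bach1 encodes a repressor of heme oxygenase and other antioxidant genes that heme displaces from DNA. Its log2 signal in femur was 9.32, 9.56, 9.07 and 9.18 in wild type and 8.49, 8.47, 8.33 and 8.52 in AEA001. In white adipose tissue it was 7.17, 7.39, 7.82 and 7.62 in wild type and 8.23, 7.94, 8.37 and 8.02 in AEA001. The genotypes did not overlap in either tissue. The effects were -0.83 in femur (adjusted p = 0.0425) and 0.64 in white adipose tissue (adjusted p = 0.0268), with a difference of -1.47 ± 0.20 (adjusted p = 0.0225).

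Ddx6, a helicase of the processing bodies that store and degrade mRNA, had effects of the same signs. In femur its log2 signal was 9.81, 9.98, 9.58 and 9.96 in wild type and 9.21, 8.98, 9.09 and 9.07 in AEA001. The white adipose values were 9.53, 9.72, 10.22 and 10.09 in wild type and 10.39, 10.30, 10.51 and 10.34 in AEA001. Neither tissue had an overlap between genotypes, the difference was -1.24 ± 0.20 (adjusted p = 0.0225), and all 3 Ddx6 probes had a negative difference. Purb, a single-stranded nucleic acid binding repressor of smooth muscle actin, differed by -1.57 ± 0.25 with effects of -0.97 in femur and 0.60 in white adipose tissue, both past the threshold (adjusted p = 0.0463 and 0.0453). Spen, a corepressor of Notch target genes, did likewise with -0.58 and 0.46 (adjusted p = 0.0479 and 0.0318).

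Tnfrsf25, a death receptor found on T cells, had the lowest femur effect of these 12 genes at -1.31 (adjusted p = 0.00484). Its femur signal was 5.70, 5.88, 5.27 and 5.94 in wild type and 4.45, 4.59, 4.07 and 4.45 in AEA001, close to the floor of 4 in the mutants, and its white adipose effect was 0.24 (adjusted p = 0.31). Med12, a subunit of the Mediator kinase module, differed by -1.10 ± 0.19, and Noc4l, a factor of small ribosomal subunit assembly, by -0.63 ± 0.11. Abi3, which belongs to the actin-regulating WAVE complex, differed by -0.82 ± 0.14, with effects of 0.63 in white adipose tissue (adjusted p = 0.0179) and -0.19 in femur. The remaining 4 genes, the syntenin gene Sdcbp2, Arhgap32, the zinc finger gene Zfp653 and the phosphorylase kinase subunit gene Phkg2, differed by -1.19, -1.19, -0.94 and -0.65.

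**Figure D3:**
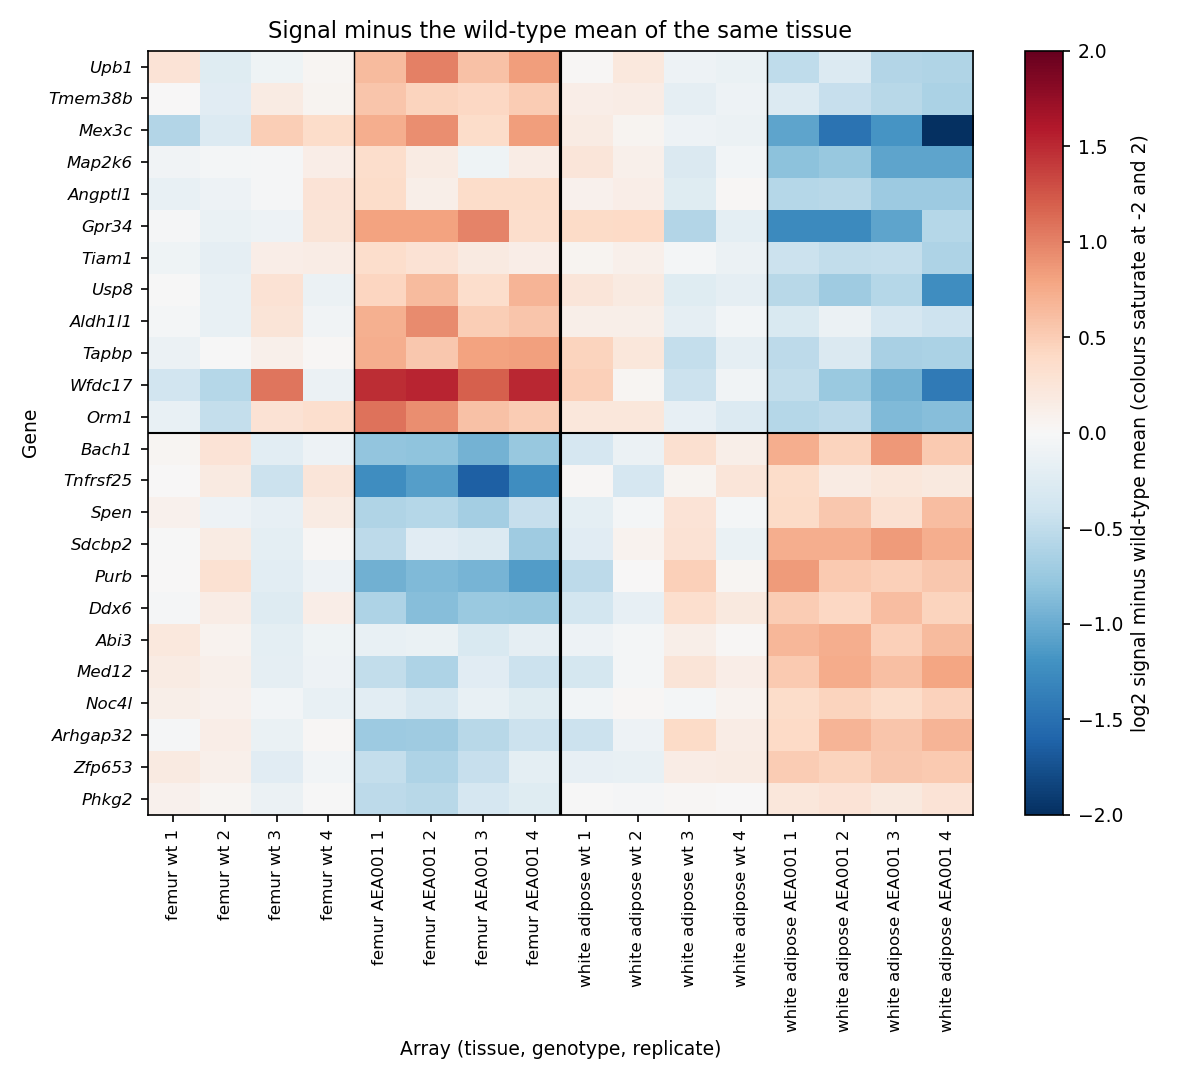
Colours give the log2 signal of the 12 genes of smallest p in each direction (rows) on all 16 arrays (columns), minus the wild type mean of the same tissue. The AEA001 columns turn mostly from red in femur to blue in white adipose tissue for the upper 12 genes and from blue to red for the lower 12, and wild type replicate 3 in femur shows the mutant colour for Wfdc17.

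Promoters were read from RefSeq (GRCm38.p6) as the 250 bases before each gene start, to describe letters that genes of either sign share. Sequences were found for 239 of the 292 genes with a positive difference, 244 of the 294 with a negative one and 7311 of all 8970. A PU.1-type motif (GAGGAAG, either strand), the letters bound by a factor of macrophages and other white blood cells, was in 14.6%, 9.84% and 11.0% of them. A GC box (GGGCGG) was in 51.5%, 61.5% and 58.9%, a CCAAT box in 30.1%, 31.1% and 36.8%, and a cyclic AMP response element (TGACGTCA) in 1.67%, 4.51% and 2.59%. The median GC content was 58.4%, 60.6% and 59.6%. These shares are descriptions with no test, and a match is not a binding site. The promoters below belong to a pair of genes from each direction that hold such letters, and they were chosen after the matches were seen. Capitals mark PU.1-type motifs and CCAAT boxes in Upb1 and Wfdc17, GC boxes in Bach1, and GC boxes and the cyclic AMP response element in Purb. The GC boxes of Purb overlap. In GRCm38.p6 the Upb1 promoter lies at chr10:75406661-75406910 (plus strand), that of Wfdc17 at chr11:83703806-83704055 (plus strand), that of Bach1 at chr16:87698704-87698953 (plus strand) and that of Purb at chr11:6476077-6476326 (minus strand), and each sequence is written 5′ to 3′ on its gene's strand.
Upb1: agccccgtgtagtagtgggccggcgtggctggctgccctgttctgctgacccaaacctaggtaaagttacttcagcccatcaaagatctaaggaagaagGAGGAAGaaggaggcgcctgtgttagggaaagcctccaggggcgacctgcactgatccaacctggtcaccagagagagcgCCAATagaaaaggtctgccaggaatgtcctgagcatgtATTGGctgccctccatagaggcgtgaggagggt
Wfdc17: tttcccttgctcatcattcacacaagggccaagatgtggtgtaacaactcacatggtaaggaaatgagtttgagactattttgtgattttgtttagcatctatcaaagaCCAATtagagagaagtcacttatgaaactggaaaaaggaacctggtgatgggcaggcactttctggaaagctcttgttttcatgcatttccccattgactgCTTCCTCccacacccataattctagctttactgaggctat
Bach1: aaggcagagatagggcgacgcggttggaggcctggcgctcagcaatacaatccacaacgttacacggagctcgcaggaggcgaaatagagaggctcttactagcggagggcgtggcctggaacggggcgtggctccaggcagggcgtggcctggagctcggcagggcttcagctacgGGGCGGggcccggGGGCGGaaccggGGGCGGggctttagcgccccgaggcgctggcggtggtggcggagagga
Purb: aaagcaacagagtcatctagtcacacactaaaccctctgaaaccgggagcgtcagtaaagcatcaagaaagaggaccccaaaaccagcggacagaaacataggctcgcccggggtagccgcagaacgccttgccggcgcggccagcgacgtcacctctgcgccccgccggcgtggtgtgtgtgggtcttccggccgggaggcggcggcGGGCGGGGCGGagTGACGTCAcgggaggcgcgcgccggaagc
Upb1 held 1 PU.1-type motif and Wfdc17 held 1, while Bach1 held 3 GC boxes that began 73, 60 and 48 bases before the gene start.

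Immune genes gave mostly positive differences, with 23 positive and 2 negative calls among 204 tested (12.3% against 6.53% of all genes). The gene lists here and below were chosen with earlier results of these data known, so their shares are descriptions and no separate test. Of the 28 listed macrophage and dendritic cell genes, 20 were bright enough in both tissues to be tested, and 17 of these 20 had a positive effect in femur with a negative effect in white adipose tissue, against 24.5% of all genes. The difference passed the threshold for 6 (all positive) and had an unadjusted p under 0.05 for 16 (all positive), against 3.26% and 12.3% of all genes. The femur median was 0.40, the white adipose median was -0.52 and the median difference was 1.0, against -0.07 over all genes. With each animal left out the median difference stayed between 0.80 and 1.20. In these bulk samples of either tissue, a change in macrophage number and a change in RNA per macrophage cannot be told apart.

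Lyz2, lysozyme of macrophages and granulocytes, had a log2 signal in femur of 13.97, 13.71, 14.39 and 14.20 in wild type and 14.53, 14.38, 14.50 and 14.57 in AEA001. Its white adipose values were 14.33, 13.82, 12.96 and 13.30 in wild type and 12.87, 12.64, 12.45 and 12.20 in AEA001. The genotypes overlapped in femur through wild type replicate 3 and did not overlap in white adipose tissue. The difference was 1.49 ± 0.34 (limma adjusted p = 0.0307), and a dimmer probe had 0.71 (adjusted p = 0.21). The complement component gene C1qc differed by 1.01 ± 0.24 and the mannose receptor gene Mrc1 by 0.96 ± 0.24 (adjusted p = 0.0328 and 0.0334). The other 3 were Vsig4, a complement receptor (1.01), Cd14, the endotoxin co-receptor (1.03), and Lilrb4a, an inhibitory receptor (2.00), named here to complete the count.

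Averaged over the 20 macrophage genes, the white adipose arrays read 9.71, 9.56, 8.89 and 8.77 in wild type and 8.73, 8.51, 8.54 and 8.41 in AEA001. The femur arrays read 8.23, 7.99, 8.62 and 8.43 in wild type and 8.75, 8.69, 8.77 and 8.65 in AEA001. The genotypes did not overlap in either tissue, but the white adipose means of wild type 3 and 4 lay nearer to those of the mutants than to those of wild type 1 and 2. Without AEA001 replicate 2 in white adipose tissue the median effect there was -0.60.

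Genes of the phagocyte oxidase and Fc receptors, with which these cells kill and bind coated particles, had effects of the same signs. Of 13 tested, 11 had a positive femur effect with a negative white adipose effect, against 24.5% of all genes. The difference passed the threshold for 2 and had an unadjusted p under 0.05 for 9 (all positive), against 3.26% and 12.3% of all genes. The medians were 0.35 in femur and -0.66 in white adipose tissue, or -0.72 there without the array of AEA001 replicate 2. Ncf1, an oxidase subunit, had a white adipose signal of 6.19, 6.28, 5.04 and 5.02 in wild type, and in AEA001 3 of 4 arrays were held at the floor of 4.00 with the fourth at 4.88. Its effect there, -1.41 (adjusted p = 0.0225), is therefore set in part by the floor, and the difference was 1.67 ± 0.41. Fcgr2b, the inhibitory IgG receptor, differed by 0.90 ± 0.21, with all 3 probes positive.

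MHC class II genes had a femur median of 0.23 and a white adipose median of -0.62 (-0.68 without the array of AEA001 replicate 2). Of the 8 tested, 7 had a positive femur effect with a negative white adipose effect, against 24.5% of all genes. None passed the adjusted threshold in limma, and 4 had an unadjusted p under 0.05 (all positive, against 12.3% of all genes). Cd74, the invariant chain, had a white adipose signal of 13.81, 13.86, 12.82 and 12.77 in wild type and 12.81, 12.96, 12.69 and 12.77 in AEA001. Wild type replicates 1 and 2 stood above all 6 other arrays, and replicates 3 and 4 lay among the mutants. Its difference was 0.78 ± 0.32 (adjusted p = 0.13).

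**Figure D4:**
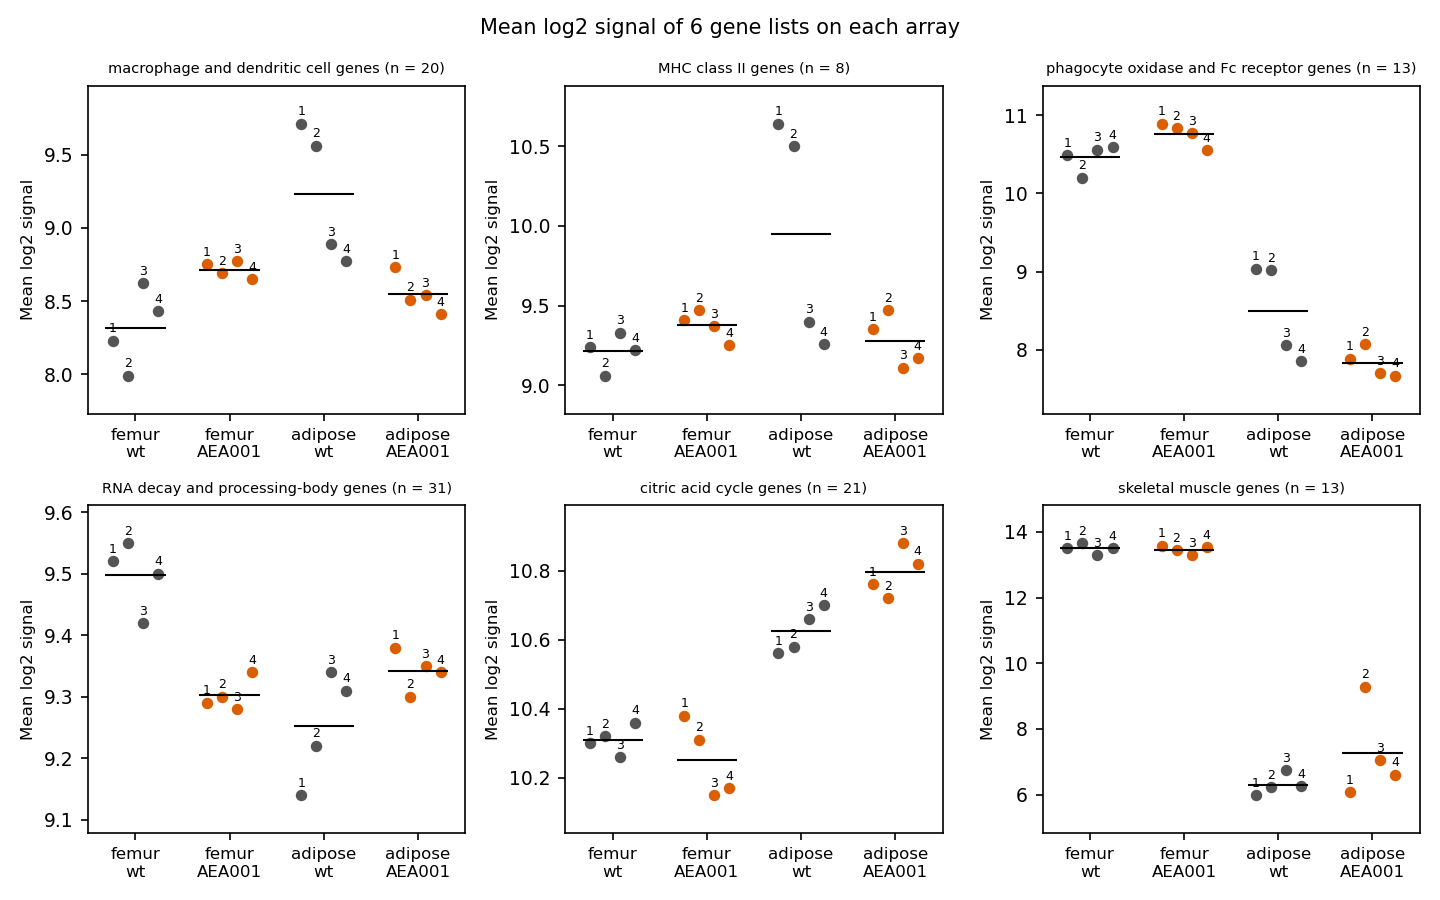
Points give the mean log2 signal of the tested genes of 6 lists on each array, with replicate numbers, and bars give the mean of the 4 arrays. Macrophage genes are higher in AEA001 in femur and lower in white adipose tissue, RNA decay genes show the reverse, MHC class II and phagocyte genes in white adipose tissue are highest in wild type replicates 1 and 2, and skeletal muscle genes in white adipose tissue reach 9.29 in AEA001 replicate 2.

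Inflammatory cytokine and NF-kB genes gave 6 positive calls and no negative one among 20 tested (30.0%, against 3.26% positive calls over all genes). Casp4, the caspase that senses cytosolic endotoxin, differed by 1.20 ± 0.27 (adjusted p = 0.0289), although only 2 of its 3 probes were positive. Tlr2 and Tlr4, receptors for bacterial lipoprotein and endotoxin, differed by 1.13 ± 0.29 and 0.90 ± 0.21. Tlr4 read 7.14, 6.55, 7.38 and 7.22 in wild type femur against 7.62, 7.55, 7.43 and 7.41 in AEA001, and 8.10, 8.22, 7.83 and 7.89 in wild type white adipose tissue against 7.61, 7.58, 7.64 and 7.37. Neither tissue had an overlap. The other 3 calls, named to complete the count, were the NF-kB cofactor gene Bcl3 (1.11), the inflammasome caspase gene Casp1 (0.88) and the NF-kB inhibitor gene Nfkbie (0.76), whose femur effect was -0.0028. The feedback genes Nfkbia (0.07) and Tnfaip3 (0.20) had small differences and are named for contrast after their values were seen.

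Chemokines gave 2 calls among 17 tested, both positive (11.8%, against 6.53% of all genes). Ccl6 differed by 1.75 ± 0.35 (adjusted p = 0.0256), with wild type white adipose values of 9.65, 9.70, 8.71 and 8.53 against 8.51, 8.33, 8.26 and 7.85 in AEA001, and femur values of 7.14, 6.81, 7.42 and 7.30 against 7.81, 8.19, 8.02 and 8.04. Ccl8, which attracts monocytes, differed by 1.52 ± 0.43 (adjusted p = 0.0477). Acute phase and complement genes gave 3 positive calls among 13 (23.1%), which were Orm1, the hemoglobin scavenger haptoglobin gene Hp (0.77 ± 0.18 on the brightest probe, 1.83 and 1.85 on its other 2) and the endotoxin-binding protein gene Lbp (1.08 ± 0.24). Lysosome and proton pump genes gave 3 positive calls among 32 (9.38%), the protective protein gene Ctsa (1.46), the asparaginyl protease gene Lgmn (1.04) and the palmitoyl thioesterase gene Ppt1 (0.77). Interferon response genes gave 1 call among 27 (3.70%), the exonuclease gene Isg20, and it was negative (-0.76 ± 0.21). Of the 27, 16 had a positive femur effect with a negative white adipose effect, against 24.5% of all genes. The median difference of the interferon list was 0.27, of the opposite sign to its single call.

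The other negative call of the immune lists was Prf1, the pore-forming protein of cytotoxic lymphocytes. Its log2 signal was 9.86, 10.01, 9.11 and 9.62 in wild type femur and 8.89, 8.81, 9.11 and 8.75 in AEA001, and 7.37, 8.01, 8.67 and 8.43 against 8.71, 8.86, 9.07 and 9.50 in white adipose tissue. Wild type replicate 3 equalled AEA001 replicate 3 in femur, and the difference was -1.67 ± 0.37 (adjusted p = 0.0288). Neutrophil genes had other signs. Of 12 tested, 10 had positive effects in both tissues (19.6% of all genes), and Hp was the 1 call. Their white adipose median of 0.37 was 0.07 without the array of AEA001 replicate 2, whose mean was 8.86 against 7.03 to 7.50 on the other arrays.

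Genes of RNA metabolism gave mostly negative calls, 13 of 17 among 87 tested (19.5% called, against 6.53% of all genes). These lists too were chosen with earlier results of these data known, so the share is no separate test. RNA decay and processing-body genes gave 6 calls among 31 tested, all negative, against 3.28% negative calls over all genes. A negative femur effect with a positive white adipose effect was seen in 19 of the 31, against 34.9% of all genes. The sizes were smaller than for the macrophage genes, with medians of -0.12 in femur and 0.07 in white adipose tissue. Their mean was 9.52, 9.55, 9.42 and 9.50 in wild type femur and 9.29, 9.30, 9.28 and 9.34 in AEA001, with no overlap, while in white adipose tissue 9.14, 9.22, 9.34 and 9.31 overlapped with 9.38, 9.30, 9.35 and 9.34.

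Besides Ddx6, the calls were Cnot4, a ubiquitin ligase tied to the CCR4-NOT deadenylase (-0.91 ± 0.23), Ago2, the microRNA-guided slicer (-1.17 ± 0.31), and 3 further genes named to complete the count. These were the decapping scaffold gene Edc4 (-0.56), the deadenylase gene Pan2 (-0.63) and the microRNA silencing gene Tnrc6b (-1.03). Ago2 read 7.52, 7.49, 6.83 and 7.15 in wild type femur and 6.30, 6.05, 6.31 and 6.93 in AEA001, so that wild type replicate 3 fell below AEA001 replicate 4. All 3 probes of Cnot4 and all 3 of Pan2 were negative.

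Splicing factors and RNA-binding proteins were divided, with 5 negative and 3 positive calls among 36 (22.2% called, against 6.53% of all genes). The negative calls were Purb, the kinase gene Clk4 (-0.74), the splicing regulator gene Rbm5 (-0.54), the serine- and arginine-rich factor gene Srsf4 (-0.52) and the RNA polymerase II associated gene Taf15 (-1.24). The positive ones were the splicing factor genes Srsf10 (0.63) and Son (0.75) and Hnrnpk, a multifunctional RNA-binding protein (0.95). For Clk4 only 2 of 3 probes were negative, and for Hnrnpk 1 of 2 was positive. Chromatin regulators gave 2 negative calls, the histone demethylase gene Kdm6a (-0.83 ± 0.19) and the acetyl-histone reader gene Brd2 (-0.39 ± 0.11), and 1 positive, the acetyltransferase gene Kat2b (0.62 ± 0.17), among 20. Their means did not overlap in femur (9.41 to 9.55 in wild type, 9.32 to 9.37 in AEA001), and 13 of the 20 were lower in femur with higher values in white adipose tissue.

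The heme list gave 2 calls among 16 tested, both negative (12.5%, against 6.53% of all genes). Bach1, which encodes a repressor and no heme enzyme, was 1 of them and was already described above by its p. Alas2, the first enzyme of heme synthesis in red cell precursors, was the other. Alas2 read 14.12, 14.32, 14.08 and 14.10 in wild type femur and 13.84, 13.87, 14.01 and 14.00 in AEA001, and 9.63, 9.83, 10.01 and 10.30 against 10.79, 10.82, 10.39 and 10.29 in white adipose tissue. The genotypes overlapped in white adipose tissue, and the difference was -0.86 ± 0.21 (adjusted p = 0.0332). Hmox1, the heme-degrading target of Bach1, is named after its values were seen. Its effects were 0.54 in femur and -0.93 in white adipose tissue, with a difference of 1.47 ± 0.54 that missed the threshold (adjusted p = 0.093). The list of oxidative stress and NRF2 genes did not share these signs. Of its 24 tested genes none passed, and the medians were -0.02 (femur) and 0.07 (white adipose). The median difference was -0.04, against -0.07 over all genes. In limma, 5 negative and 2 positive differences had an unadjusted p under 0.05. A link between Bach1 and these genes was not tested. Red cell genes had no call among 13, with 3 unadjusted p under 0.05, and a white adipose median of 0.29 that was 0.12 without the array of AEA001 replicate 2. Hba-a1, alpha globin, read the top value of the scale on all 8 femur arrays and cannot show a femur effect. Megakaryocyte genes gave 1 call each way among 11 tested (18.2%, against 6.53% of all genes). These were the transcription factor gene Fli1 (1.03 ± 0.23) and the platelet integrin gene Itga2b (-1.0 ± 0.28).

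Of 93 bone genes tested, 6 passed (6.45%, against 6.53% of all genes). Osteoblast and bone matrix genes had negative medians in both tissues (-0.24 in femur and -0.17 in white adipose tissue, or -0.12 there without the array of AEA001 replicate 2), and 6 of 14 were lower in both. The 2 calls were Bmp3, a bone-derived BMP antagonist (0.67 ± 0.18), with effects of -0.64 in white adipose tissue (adjusted p = 0.0209) and 0.03 in femur, and Pth1r, the parathyroid hormone receptor (-0.97 ± 0.28, adjusted p = 0.0487). Pth1r read 8.41, 8.60, 7.93 and 8.58 in wild type femur and 7.81, 7.63, 7.87 and 7.93 in AEA001, and 1 of its 3 probes had the other sign. No osteocyte gene (6 tested, 2 at an unadjusted p under 0.05), osteoclast gene (14 tested, 4) or cartilage gene (8 tested, 0) passed in limma. The brightest of each were Pdpn (0.07), Ckb (-0.03) and Col2a1 (-1.0 ± 0.65), the cartilage collagen, whose white adipose signal was 6.87 on AEA001 replicate 2 and 4.00 to 4.75 on the other arrays.

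Signalling genes of bone had calls of both signs. Gsk3b, the kinase that marks beta-catenin for degradation, was the 1 Wnt pathway call among 18 (-0.94 ± 0.22), or 5.56% against 6.53% of all genes. Of 33 BMP and TGF-beta genes, 3 passed (9.09%). Tgfbi, a matrix protein induced by TGF-beta, was positive (0.76 ± 0.14, adjusted p = 0.0256), with 11.05, 11.09, 11.32 and 11.28 in wild type femur against 11.66, 11.47, 11.41 and 11.41 in AEA001, and 11.43, 11.29, 11.17 and 11.18 against 11, 10.79, 10.80 and 10.68 in white adipose tissue. Neither tissue had an overlap. The endothelial co-receptor gene Eng (-0.59 ± 0.14) and the latent TGF-beta binding gene Ltbp1 (-0.60 ± 0.17) were negative. Eng was also the single endothelial call among 22 (4.55%).

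None of the 5 tested genes of the endothelin pathway passed, and 1, the peptidase gene Mme, had an unadjusted p under 0.05. Mme, which degrades endothelin and other peptides, had a difference of 0.80 ± 0.26 (limma adjusted p = 0.0711), with 9.96, 9.75, 9.47 and 9.37 in wild type white adipose tissue and 9.10, 8.82, 9.09 and 8.95 in AEA001. The ligand gene Edn1 had effects of -0.31 in femur and 0.30 in white adipose tissue (adjusted p of the difference 0.24). The type B receptor gene Ednrb had 0.32 and 0.02 (adjusted p = 0.38). The endothelin-converting enzyme genes Ece1 and Ece2 had differences of -0.57 and 0.33 (adjusted p = 0.18 and 0.48). Smooth muscle and pericyte genes also gave no call among 17, although 5 had an unadjusted p under 0.05, all negative (15.4% of all genes), and 10 had a negative femur effect with a positive white adipose effect. All 4 probes of Acta2, smooth muscle actin, had a positive difference, although the median difference of the list was -0.33. The probes disagreed in size. The brightest had a difference of 0.30 ± 0.17 (adjusted p = 0.26) and another 0.34 (adjusted p = 0.27), while a pair of dimmer probes passed at 1.41 and 1.21 (adjusted p = 0.0225 and 0.0243).

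No collagen passed among 14 tested, 4 had an unadjusted p under 0.05, and 9 of the 14 had negative effects in both tissues (21.0% of all genes), with medians of -0.16 in femur and -0.43 in white adipose tissue. Col6a1, the brightest of them, read 14.38, 14.16, 13.94 and 13.66 in wild type white adipose tissue and 13.66, 13.45, 13.39 and 12.94 in AEA001. Its femur effect was -0.16 and the difference 0.51 ± 0.25 (adjusted p = 0.19). Of 77 matrix genes tested, collagens included, 5 passed (6.49%, against 6.53% of all genes). These were the crosslinking enzyme gene Loxl2 (1.04 ± 0.28), the microfibril gene Mfap5 (0.87 ± 0.21), the metalloproteinase gene Mmp23 (-0.76 ± 0.15) and 2 inhibitors of metalloproteinases with opposite signs, Timp4 (1.04 ± 0.29) and Timp3 (-0.58 ± 0.16). Timp4 was far brighter in white adipose tissue, where it read 12.30 to 12.96, than in femur, where it read 6.85 to 7.65 in wild type and 7.44 to 8.45 in AEA001.

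Adipocyte markers had no call (20 tested, 3 at an unadjusted p under 0.05). Lpl, lipoprotein lipase, had effects of -0.06 and 0.01, and Scd1, a fatty acid desaturase, of 0.28 and 0.13. The insulin list gave 2 negative calls and 1 positive call among 22 (13.6%, against 6.53% of all genes). Its median difference was 0.02. Irs2, a docking protein of the insulin receptor, read 9.41, 9.35, 8.91 and 9.05 in wild type femur and 8.69, 8.60, 8.69 and 9.03 in AEA001, and 9.17, 9.41, 9.91 and 9.71 against 9.88, 10.21, 10.36 and 10.67 in white adipose tissue. Single animals overlapped in each tissue, and the difference was -1.16 ± 0.27 (adjusted p = 0.0315). Pdpk1, the kinase that activates AKT, differed by -0.97 ± 0.21, and Igfbp3, a binding protein of insulin-like growth factors, by 1.07 ± 0.23. Ppargc1b, a coactivator of mitochondrial genes, differed by -1.39 ± 0.35 (adjusted p = 0.0348), with a white adipose effect of 1.13 that passed alone (adjusted p = 0.025) and a femur effect of -0.26. It was the 1 call among 8 brown and beige fat genes (12.5%), and Ucp1 itself was dim in white adipose tissue at 27.3 to 64.9 units.

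Fuel oxidation genes had positive medians in white adipose tissue. Citric acid cycle genes had a femur median of -0.05 and a white adipose median of 0.23. Of these 21 genes, 11 were negative in femur with positive white adipose values, against 34.9% of all genes. Dlst, a subunit of the 2-oxoglutarate dehydrogenase complex, was the 1 call (-0.43 ± 0.11), with 11.64, 11.52, 11.71 and 11.77 in wild type white adipose tissue below 11.87, 11.87, 12 and 11.87 in AEA001. Of 64 respiratory chain genes, none passed and 17 had an unadjusted p under 0.05, against 27.7% of all genes. Of these, 14 were negative, against 15.4% of all genes. Atp5b, the brightest, had a difference of -0.01 ± 0.09. Fatty acid oxidation genes had 8 negative and 4 positive unadjusted p under 0.05 among 22, against 15.4% and 12.3% of all genes. The 1 call was the acyl-CoA dehydrogenase gene Acadl with the sign opposite to the list (0.88 ± 0.23), for which its 2 probes disagreed.

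**Figure D5:**
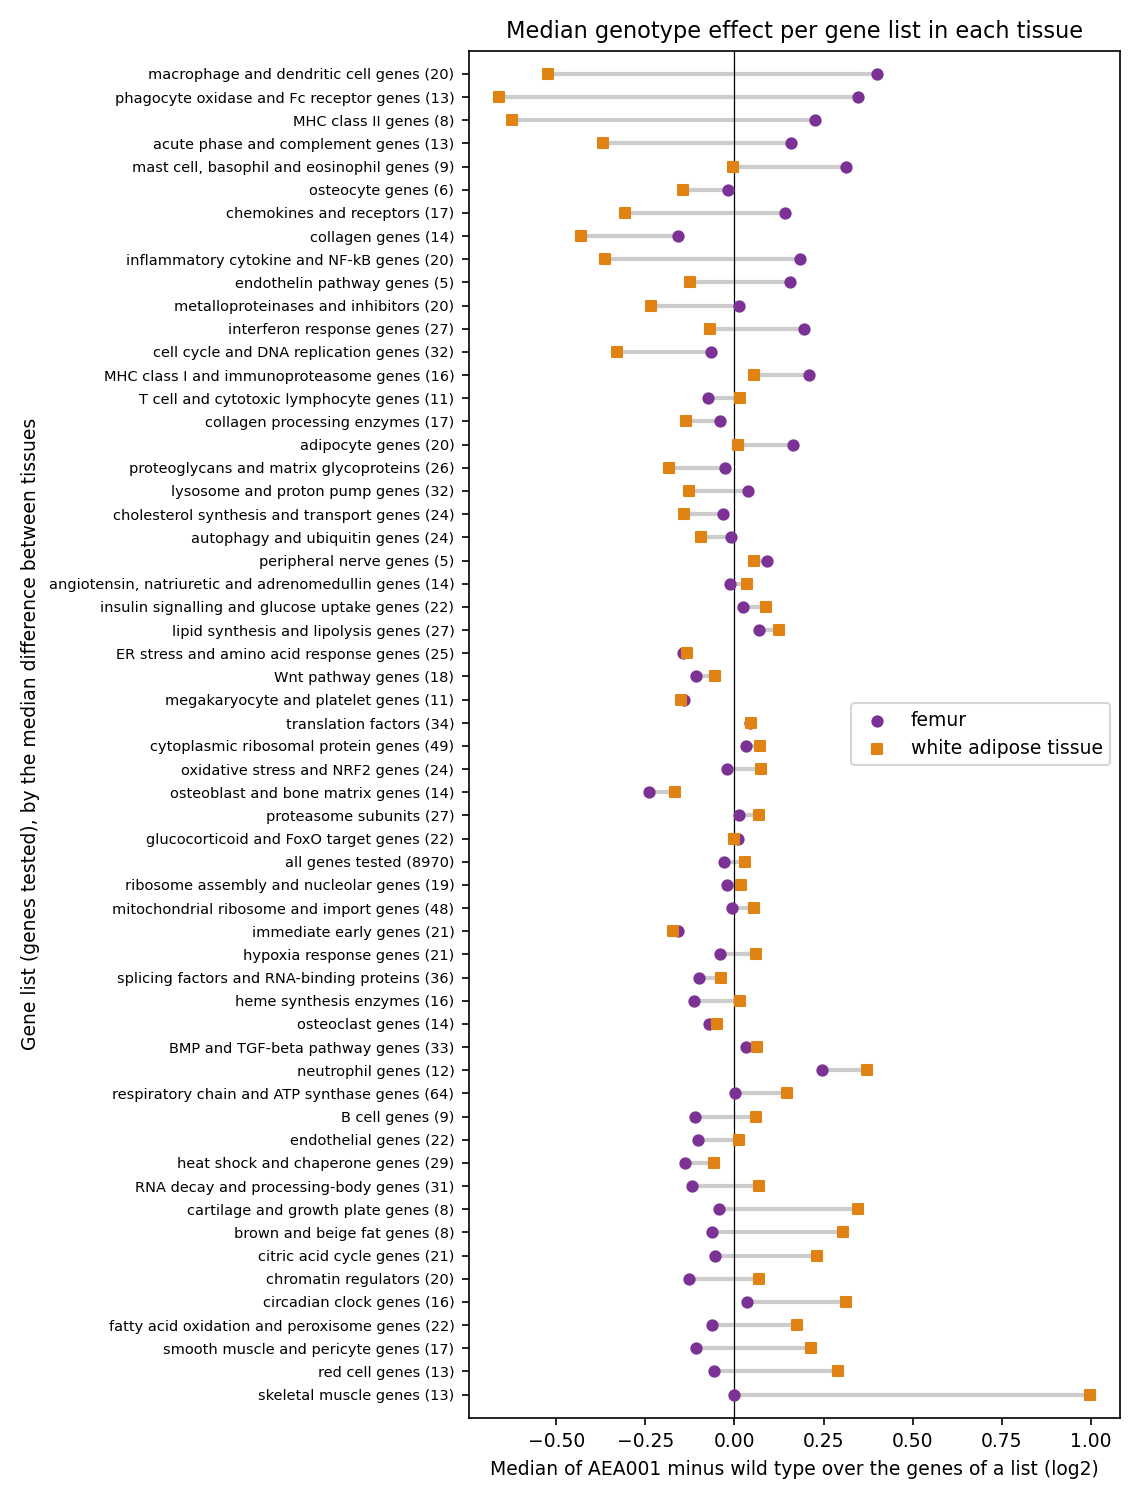
Circles give the median genotype effect in femur and squares that in white adipose tissue (x axis, log2) for each list with 5 or more tested genes, ordered by the median difference. Macrophage, phagocyte and MHC class II genes have the widest positive gaps, and skeletal muscle genes, at 0.00 in femur and 1.00 in white adipose tissue, have the widest negative gap.

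Skeletal muscle genes had the widest negative median of the lists, at -1.10 over 13 tested genes, with medians of 0.00 in femur and 1.00 in white adipose tissue. The white adipose arrays averaged 5.99, 6.23, 6.74 and 6.26 in wild type and 6.08, 9.29, 7.05 and 6.61 in AEA001, with AEA001 replicate 2 highest. Without it the median difference was -0.32, and no gene of the list passed the threshold with it.

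Some lists had medians of the same sign in both tissues. Over all genes 21.0% were lower in both tissues and 19.6% higher in both. Cell cycle and DNA replication genes were lower in both for 19 of 32, with no call (6 at an unadjusted p under 0.05). Their femur median was -0.06 and their white adipose median -0.33 (-0.42 without the array of AEA001 replicate 2). Heat shock and chaperone genes were lower in both for 16 of 29 (-0.14 and -0.06, no call, 6 at an unadjusted p under 0.05). Clock genes were higher in both for 9 of 16, with medians of 0.04 and 0.31. None of them passed, and 4 had an unadjusted p under 0.05, all negative. Dbp, a clock-driven transcription factor, had effects of 0.53 in femur and 1.40 in white adipose tissue (adjusted p = 0.36 and 0.025), and their difference did not pass (-0.87 ± 0.44, adjusted p = 0.20). Of the 586 genes past the threshold, 11 had the same sign in both tissues. They included Gsn, gelsolin, with 1.23 in femur and 0.12 in white adipose tissue, named after its values were seen.

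Signal and probe agreement were also counted. Genes past the threshold with a positive difference were brighter in white adipose tissue, over both genotypes, for 157 of 292 (53.8%), and those with a negative difference for 151 of 294 (51.4%), against 53.0% of all genes. The white adipose effect was the larger of the 2 in size for 67.8% of the former and 51.4% of the latter, against 59.6% of all genes. Of 2307 genes with several tested probes, 60.8% had the same sign of difference on all of them.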

How the data were processed

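Total RNA of 16 samples was hybridised to Illumina bead arrays with 1 colour. The deposited values are normalized intensity from GenomeStudio 2011.1, per the submitters' processing notes, and how background was removed and arrays were normalized is not given in the sources used here. In the authors' deposited values 25.3% to 25.4% of probes per array were below 0, and the sorted values of all arrays differed by at most 0.797 units, so arrays of both tissues share 1 distribution. A second deposited table, with 16 signal columns that match no sample label, was not used.

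Intensities below 16 were set to 16 before log2, and 14204 to 14227 probes per array exceeded that floor. The number of arrays limits the precision. Probes above 16 on at least 4 of 8 arrays in each tissue were fitted with limma 3.58.1 in R 4.3.3 (4 group means, animal as a random block through duplicateCorrelation, consensus correlation -0.0884), and the difference between tissues was a contrast with Benjamini-Hochberg adjustment at 0.05. All p-values other than the exact permutation p come from limma. The block pairs the tissues of each animal by genotype and replicate number in the labels. The deviations of an animal's 2 arrays correlated at -0.29 to 0.04, so the numbers did not show shared deviations. The limma p-values rest on the spread of the 16 arrays around the 4 group means, pooled over both tissues. The variance of each probe was drawn toward that of all probes. At a consensus correlation of -0.0884 the 2 arrays of an animal counted as nearly independent. The script was tested on simulated data. Probe names came from the platform annotation, updated through RefSeq GRCm38.p6: 23978 of 25697 probes had 1 gene, 0 had several and 1719 had none. A gene's probe was the brightest over all arrays, and adjusted p-values run over all probes.

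Members and lists were chosen with earlier results of these data known. Named genes were the 12 of smallest p in each direction, up to 3 called genes per list, the brightest gene of lists without a call, and the tested endothelin genes. Alternatives covered filters, floors, normalizations, blocks, array weights and each animal left out.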

Additional observations from a re-analysis of the deposited data

Results flagged for a closer look

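The test of the difference itself set the count of 586 genes apart, and with it the 24 genes of smallest p. The positive differences were 1.26 for Upb1, 0.96 for Tmem38b, 2.19 for Mex3c, 1.07 for Map2k6, 0.95 for Angptl1, 1.79 for Gpr34, 0.74 for Tiam1, 1.29 for Usp8, 0.97 for Aldh1l1, 1.25 for Tapbp, 2.33 for Wfdc17 and 1.49 for Orm1. The negative ones were -1.47 for Bach1, -1.55 for Tnfrsf25, -1.04 for Spen, -1.19 for Sdcbp2, -1.57 for Purb, -1.24 for Ddx6, -0.82 for Abi3, -1.10 for Med12, -0.63 for Noc4l, -1.19 for Arhgap32, -0.94 for Zfp653 and -0.65 for Phkg2.

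In 12 of 328 groups of 4 arrays, 1 array stood apart by Dixon's ratio, while chance alone sets apart about 5% of such groups. In white adipose tissue AEA001 replicate 2 had mean log2 signals of 7.95 for red cell genes (7.04 to 7.12 on the other 3) and 8.51 for osteoclast genes (8.07 to 8.14). AEA001 replicate 4 had 7.93 for osteocyte genes, AEA001 replicate 3 had 9.09 for chromatin regulators, wild type replicate 3 had 10.41 for proteoglycans, and wild type replicate 2 had 9.27 for ribosome assembly genes. In femur, AEA001 replicate 2 had 9.35 for MHC class I genes (8.99 to 9.04 on the other 3), AEA001 replicate 4 had 10.53 for NRF2 genes, and AEA001 replicate 3 had 9.80 for glucocorticoid and FoxO targets. Among single genes, Angptl1 stood apart at 8.43 in femur AEA001 replicate 2, Wfdc17 at 7.82 in femur AEA001 replicate 3, and Sdcbp2 at 8.20 in white adipose AEA001 replicate 3.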

How the results depend on the processing

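With 1 animal left out at a time, the probes past the threshold numbered 0 to 2670 for the difference between tissues (929 with all arrays), 0 to 2575 for those with opposite signs as well (916), 0 to 1029 for the femur effect (38) and 0 to 2063 for the white adipose effect (983). The highest count of each came without wild type replicate 3. Without the white adipose array of AEA001 replicate 2 they were 288, 286, 3 and 405, in the same order, and without both animals that share an identifier the first 3 were 2032, 1982 and 703. For the difference and the opposite signs, the counts were 178 and 165 with no filter on dim probes, 1421 and 1393 with 50 added before log2, 1419 and 1391 with trend and robust settings, 2503 and 2412 with array weights, and 2345 and 2274 at an adjusted p of 0.10. The femur effect gave 139 and 279 probes under the stricter filters, 81 with no filter, 189 and 25 at floors of 32 and 8, 219 with 50 added, 17 after cyclic loess, 22 after quantile normalization within each tissue, 22 after median centring, 213 with trend and robust settings, 765 with array weights, 0 when fitted alone and 560 at 0.10. The white adipose effect gave 356 with no filter, 1658 with 50 added, 2347 with array weights, 2 when fitted alone and 2428 at 0.10. Some settings remove probes or arrays, and the cause of these changes was not tested.

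On the animal as a block, the difference gave 1370 probes with no replicate block, 1096 with the 7 identifiers as the block, and 0, with 0 of opposite signs, with a fixed replicate block (3413 at an unadjusted p under 0.05). None of the 79 named genes past the threshold changed sign under any of 26 settings. Of the 28 others, 7 did, in 18 gene values. The 79 genes were chosen by their adjusted p on these same arrays, so their constant sign is no separate test of them. With single animals left out, the difference ran from -0.032 to 0.013 for Atp5b (0.0034 without AEA001 replicate 1), -0.14 to 0.042 for Ckb (0.0090 without wild type replicate 2, 0.017 without AEA001 replicate 2), -0.090 to 0.052 for Mcm4 (0.040 without wild type replicate 3, 0.034 without AEA001 replicate 2), -0.26 to 0.021 for Myl1, -0.013 to 0.14 for Pdpn and -0.072 to 0.33 for Scd1. Without the AEA001 replicate 2 white adipose array it was 0.0032 for Ckb, 0.046 for Mcm4 and 0.027 for Myl1, and without the animals of the shared identifier 0.053 for Ckb and 0.031 for Mcm4. It was 0.036 for Mcm4 with array weights and 0.34 for Hspa8 over the mean of its probes. Signals near the floor of 16 limit what dim genes can show.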

Other observations

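Several gene groups outside the immune, RNA and bone themes held single genes that differed between tissues. Among 25 genes of the endoplasmic reticulum stress and amino acid response, Asns, asparagine synthetase, differed by -0.63 ± 0.16 (limma adjusted p = 0.0348) and Phgdh, the first enzyme of serine synthesis, by 1.06 ± 0.27 (adjusted p = 0.0385). The Asns effect was 0.52 in white adipose tissue and -0.11 in femur, and 1 of its 3 probes had the other sign. Phgdh read 6.44, 6.22, 7.13 and 6.33 in wild type femur and 7.21, 7.03, 7.26 and 7.15 in AEA001. Wild type replicate 3 was the highest of its group there, below all mutants but 1.

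Of 34 translation factors, Eif3k (-0.84 ± 0.19) and Eif4g2 (1.06 ± 0.28) passed with opposite signs, or 5.88% against 6.53% of all genes, and the second Eif4g2 probe had a difference of 0.016 (limma adjusted p = 0.976). Cytoplasmic ribosomal proteins had no call among 49, with 5 at an unadjusted p under 0.05. Hif1a, the oxygen-sensitive transcription factor, differed by 1.10 ± 0.26 (limma adjusted p = 0.0321) and was the 1 call among 21 hypoxia genes (4.76%). It read 9.35, 9.35, 8.78 and 8.80 in wild type white adipose tissue and 8.58, 8.42, 8.38 and 8.22 in AEA001. The sterol enzyme gene Nsdhl (1.02), the autophagy gene Atg3 (0.78), the proteasome subunit gene Psmd4 (-0.47) and the mitochondrial import gene Timm44 (-0.69) were the single calls of their lists.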
